A study of Mus musculus with 15 samples.

Results

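The genes described here are 40 genes of the cardiac sarcomere and its Z-disc, read by gene name from a table of 54532 genes measured in the left ventricle of mice after myocardial infarction. They are grouped by what their proteins do: 13 belong to the thin filament, 7 to titin, the thick filament and the M-band, 14 to the Z-disc and the intermediate filaments that join it, and 6 to sarcomere assembly and turnover. Myosin chains were left out. All 40 were found in the table, on 17 chromosomes.

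The study asked what an inhibitor of EZH2 does to the heart after an infarction. EZH2 is the enzyme of Polycomb repressive complex 2 that methylates histone H3 at lysine 27, a mark of silenced genes. In the GSK group, mice received the EZH2 inhibitor GSK-343 at 20 mg/kg by injection into the abdomen each day, the first dose 6 h after surgery and the last on day 7. In the MI group the left descending coronary artery was ligated for good and the mice received vehicle, 20% Captisol. Sham mice, the surgical control, also received vehicle. All animals were female C57BL/6JRj mice of 12 to 18 weeks, and ventricles were taken on day 8. The sample names of the GSK group give the compound alone, and that these hearts were infarcted was read from the protocols. Each group had 5 poly-A RNA libraries (n = 5), and Sham libraries 1 and 2 are each named as a mix of 2 animals. The animal number S5 occurs in the names of the mixed Sham 2 and of MI 3, and GSK 1 and 2 carry the letter G where all others carry S. Whether a single numbering applies was not settled. The model is bulk tissue of a ventricle that holds scar, inflamed and surviving muscle together, so fewer cardiomyocytes and less RNA per cardiomyocyte cannot be told apart.

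The sarcomere is the contractile unit of striated muscle. Thin filaments of actin, tropomyosin and troponin are anchored in the Z-disc by alpha-actinin, thick filaments of myosin are joined at the M-band, and titin spans from Z-disc to M-band as a spring. Desmin filaments tie neighbouring Z-discs together. Hearts under load are known to bring back actin and troponin forms of fetal or skeletal muscle, and proteins of the Z-disc take part in sensing stretch.

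Expression is given as FPKM, fragments per kilobase of the listed gene length, scaled for each library. Comparing a gene between libraries rests on that scaling. Levels and ratios between genes also depend on the listed length. It is 7752 bases for Tnnt2 and 2204 for Tnnt1, and 6485 for Tpm1 and 2909 for Tpm2. Whether the listed length matches the transcripts present in the heart was not tested. Between 21.5 M and 26.8 M gene-assigned fragments lay behind each library. With the scaling of the deposited values, a single fragment per kilobase was worth 0.0357 to 0.0478 FPKM. Differences are between group means of log2(FPKM + 1), tested with limma over 12585 genes and called where the p adjusted by Benjamini-Hochberg was under 0.05. Transcripts of the mitochondrial genome took 31.8% to 48.7% of FPKM in GSK, 23.2% to 40.6% in MI and 41.2% to 42.2% in Sham libraries, and MI 4, GSK 3 and GSK 4 had higher shares than the rest of their groups. The members together held 6.56% ± 0.819 of the nuclear-encoded FPKM in GSK, 7.06% ± 1.02 in MI and 5.80% ± 0.612 in Sham libraries (SD, n = 5).

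Sarcomere genes did not move as a block after infarction. In MI against Sham, 37 members could be tested, and 8 of them were higher (21.6%), 10 lower (27.0%) and 19 not called. Over all genes tested, 21.9% were higher and 21.9% lower, so the share of members called lay near that of genes at large. Their median log2 difference was -0.07, beside -0.02 over all genes. The counts by place in the sarcomere were as follows. At the Z-disc 6 of 13 tested members were higher and 1 lower, with a median of 0.45. Among thin filament genes 1 of 12 was higher and 5 lower, with a median of -0.19. Of the 6 titin, thick filament and M-band genes tested 1 was higher and 1 lower, with a median of -0.01. Of the 6 assembly and turnover genes none was higher and 3 were lower, with a median of -0.46, and all 6 differences were negative. The difference between these roles was not tested. In the Z-disc and in assembly and turnover these medians kept their sign under quantile normalization (0.55 and -0.43) and with mitochondrial genes left out and totals equalised (0.55 and -0.36). That of the thin filament was 0.07 and -0.09 under these settings, with 4 and 2 genes higher and 4 lower under each, and that of titin, thick filament and M-band 0.04 and 0.09. The median over all members was 0.03 under both.

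Scaling and libraries that stand apart shift the counts. With mitochondrial genes left out and totals equalised, 63.4% of all genes called in MI against Sham were higher, where the reported scaling gave equal shares. In GSK against Sham the share was 82.0% with that scaling and 58.7% as reported, and the median of all genes 0.09 and -0.02. With the mixed Sham libraries left out 10 members were higher and 7 lower in MI, and with MI 4, GSK 3 and GSK 4 left out 6 were higher and 8 lower.

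**Figure D1:**
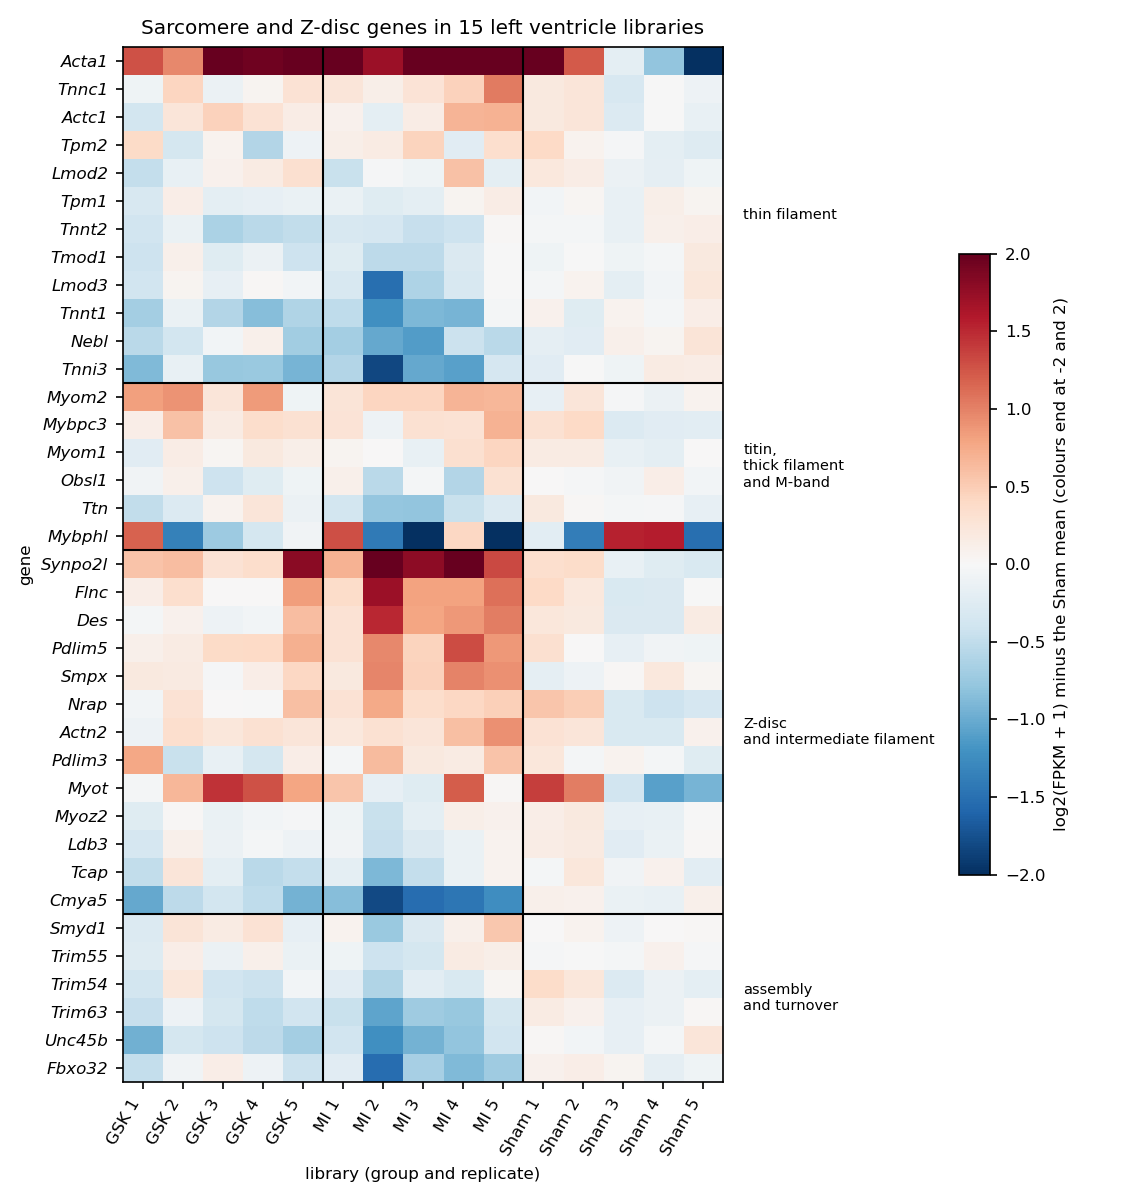
Each row is one of the 37 tested members and each column a library of the GSK, MI or Sham group; colour gives log2(FPKM + 1) minus the Sham mean of that gene, with colours ending at -2 and 2. Red rows of the Z-disc block in MI (Synpo2l, Flnc, Des) stand beside blue rows such as Cmya5, Tnni3 and Fbxo32, and the mixed libraries Sham 1 and 2 differ from Sham 3 to 5 in Acta1, Myot and Nrap.

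The thin filament was led by the cardiac actin gene Actc1 (ENSMUSG00000068614, chromosome 2, 114047282 to 114053548 on mm10), the most abundant member in every library. Actc1 read 4578, 6927, 8069, 7201 and 6491 FPKM in GSK libraries 1 to 5, 6220, 5140, 6510, 9470 and 9474 in MI and 6740, 6974, 4857, 5821 and 5298 in Sham, and the groups overlapped. The skeletal actin gene Acta1 (ENSMUSG00000031972, chromosome 8, 123891769 to 123894751 on mm10), which encodes the alpha-actin that the fetal heart shares with skeletal muscle, showed the largest log2 rise of the tested members. Its level was 390, 315, 813, 620 and 1775 FPKM in GSK libraries, 697, 526, 959, 1100 and 1940 in MI and 719, 379, 140, 92.4 and 29.6 in Sham. The single-animal Sham hearts (libraries 3 to 5) lay below every MI library, while the mixed Sham 1 lay above MI 1 and 2. Between MI and Sham the log2 difference was 2.55 ± 0.70 SE, adjusted p = 0.00869, and without the mixed Sham libraries it was 3.68 (adjusted p = 0.00083). Both actins are close paralogs and the way shared fragments were counted is not known, so their split is uncertain.

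As a share of Actc1, Acta1 ran at 8.52, 4.54, 10.1, 8.61 and 27.3 percent in GSK libraries, 11.2, 10.2, 14.7, 11.6 and 20.5 in MI and 10.7, 5.44, 2.88, 1.59 and 0.559 in Sham. The lowest MI library (10.2%) stood near the highest Sham library, the mixed Sham 1 (10.7%), and above all single-animal Sham hearts, of which the highest had 2.88%. GSK 5 held the highest share of all 15 libraries. The skeletal muscle list of 16 genes summed to 261 to 383 FPKM in GSK, 123 to 384 in MI and 326 to 430 in Sham libraries, mostly from Ckm, which the heart also expresses. Of these genes 10 averaged under 1 FPKM; Myh4 and Tnnc2 were listed at 0 in every library, and the myosins Myh1 and Myh2 reached at most 0.0172 and 0.0126 FPKM. Others were present: Myl1 lay between 12.5 and 53.9 FPKM and Casq1 up to 20.1 FPKM over the 15 libraries. Mybpc2, the fast skeletal myosin-binding protein C gene, read 7.10, 10.7, 12.7, 11.4 and 26.5 FPKM in GSK libraries, 14.7, 9.48, 12.1, 12.8 and 11.1 in MI and 14.4, 12.5, 5.45, 2.64 and 1.82 in Sham. Like Acta1 it was highest of the GSK libraries in GSK 5, and higher in the mixed than in the single-animal Sham libraries. In MI the match did not hold: Acta1 was highest in MI 5, where Mybpc2 read 11.1 FPKM, and Mybpc2 in MI 1. Other listed genes differed from Mybpc2. Among GSK libraries Casq1 was highest in GSK 3 (20.1 FPKM, against 6.48 in GSK 5) and Myl1 in GSK 1 (50.6 FPKM). Casq1 was also higher in the mixed Sham libraries, while Myl1 was not (17.7 FPKM in Sham 1, 28.3 in Sham 3). The part of skeletal muscle in the Acta1 values was not tested.

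Windows upstream of the start sites are shown for 4 members on which the results turn, Acta1 and Synpo2l as the largest log2 rises among tested members, Actc1 as the paralog that was not called, and Ttn as the titin gene. The bases run 5′ to 3′ on the transcribed (minus) strand up to the base before the start, from RefSeq on GRCm38.p6, and capitals mark matches to the CArG box of serum response factor, the MEF2 site and the MCAT motif CATTCC of TEAD factors.
Acta1 (chr8:123894776-123895025, minus strand): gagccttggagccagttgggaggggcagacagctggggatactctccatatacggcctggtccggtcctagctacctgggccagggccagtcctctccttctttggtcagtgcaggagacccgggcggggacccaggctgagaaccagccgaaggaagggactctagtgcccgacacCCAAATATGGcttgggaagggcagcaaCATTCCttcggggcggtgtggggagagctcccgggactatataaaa
Actc1 (chr2:114052876-114053125, minus strand): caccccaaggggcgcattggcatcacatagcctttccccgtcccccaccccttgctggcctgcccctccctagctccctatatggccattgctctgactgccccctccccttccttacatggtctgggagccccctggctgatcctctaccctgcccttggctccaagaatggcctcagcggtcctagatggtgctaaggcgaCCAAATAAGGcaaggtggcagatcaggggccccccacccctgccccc
Synpo2l (chr14:20668355-20668604, minus strand): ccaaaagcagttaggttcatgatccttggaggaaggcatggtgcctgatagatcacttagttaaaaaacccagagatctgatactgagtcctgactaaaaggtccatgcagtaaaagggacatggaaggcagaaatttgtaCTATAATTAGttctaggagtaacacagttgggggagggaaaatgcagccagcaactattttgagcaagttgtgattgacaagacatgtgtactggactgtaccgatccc
Ttn (chr2:76982548-76982797, minus strand): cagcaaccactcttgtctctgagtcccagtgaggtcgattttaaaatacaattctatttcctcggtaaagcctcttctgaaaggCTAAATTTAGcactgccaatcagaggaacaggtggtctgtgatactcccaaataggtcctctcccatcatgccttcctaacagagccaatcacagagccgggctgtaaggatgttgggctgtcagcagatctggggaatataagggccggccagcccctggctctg

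In the Acta1 window the CArG box lies at positions -73 to -64 and the MCAT motif at -46 to -41, counted from the annotated start as 0. The Actc1 window has a CArG box at -47 to -38, the Synpo2l window a MEF2 site at -109 to -100 and the Ttn window a MEF2 site at -166 to -157. RefSeq windows of 250 bases before and 50 after a start were matched for 33 of the 40 members, 42 windows in all. A CArG box occurred in windows of 5 members (Acta1, Actc1, Ldb3, Myom1 and Nebl), which is 14.3% of their windows against 1.63% of 32851 windows of all genes. A MEF2 site also occurred in 5 members (Mybpc3, Myom3, Myoz2, Synpo2l and Ttn), 14.3% of windows against 3.19%. MCAT was found in 28.6% of member windows against 14.7%, the E-box CANNTG in 78.6% against 72.3%, and the GATA motif AGATAA in 16.7% against 11.2%. Both strands were searched, and some matches overlap one another. Windows of a gene can also overlap, so a match can be counted in more than a single window, as with the Ldb3 CArG box. The Nebl CArG box lies in the window at chr2:17462807-17463106 and not in the other Nebl windows. Of the 7 risen members with a window 1 held a CArG box, of the 8 fallen members 1, and of the 16 not called 3. The counts for MEF2 were 1, 1 and 2, and those for MCAT 2, 4 and 5. Matches of letters are a description of these windows and not evidence of binding.

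**Figure D2:**
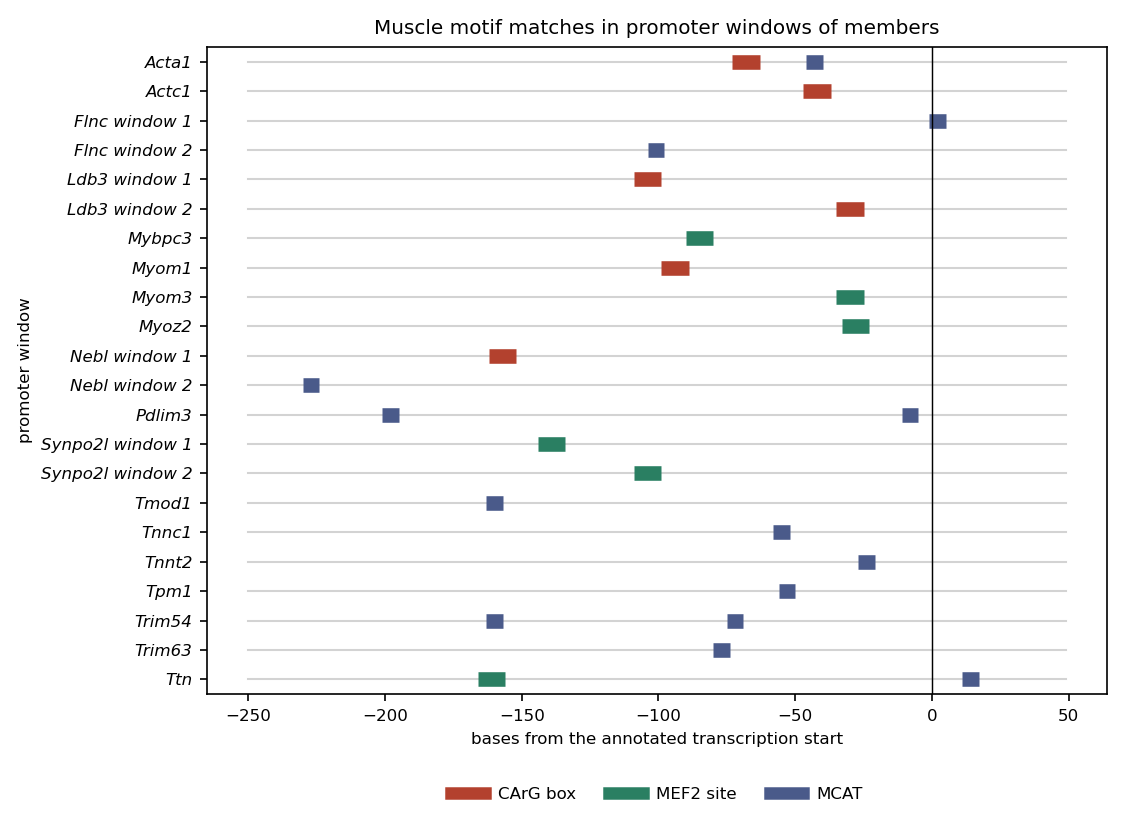
Grey lines are RefSeq promoter windows of members that hold at least 1 match, from 250 bases before to 50 after the annotated start (x axis, bases); red blocks are CArG boxes, green blocks MEF2 sites and blue blocks MCAT motifs. Acta1 is the window that holds a CArG box and an MCAT motif together, and Ttn holds a MEF2 site and an MCAT motif.

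Among the troponin genes, Tnni3 and Tnnt1 were lower after infarction, and Tnnt2 and Tnnc1 were not called. Tnni3 (ENSMUSG00000035458, chromosome 7, 4518305 to 4524229 on mm10) encodes troponin I of the adult heart, the inhibitory subunit of the calcium switch. Tnni3 had 1022, 1690, 1115, 1127 and 984 FPKM in GSK libraries, 1255, 531, 923, 881 and 1486 in MI and 1600, 1874, 1777, 2110 and 2085 in Sham. All 5 MI libraries lay below all 5 Sham libraries, and MI 2 was the lowest of all (log2 difference -0.97 ± 0.23 SE, adjusted p = 0.00394). With quantile normalization the difference was -0.39 and the call was lost (adjusted p = 0.141). Its slow skeletal and fetal form Tnni1 stayed between 0.129 and 0.379 FPKM across all libraries, too low for the test. Tnni1 read 0.132, 0.326, 0.379, 0.310 and 0.131 FPKM in GSK, 0.207, 0.228, 0.314, 0.186 and 0.129 in MI and 0.350, 0.246, 0.190, 0.144 and 0.142 in Sham. The ratio of Tnni1 to Tnni3 was 0.0214% ± 0.00918 in GSK, 0.0247% ± 0.0138 in MI and 0.0119% ± 0.00622 in Sham libraries (SD, n = 5), with overlap between the groups.

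Tnnt1 (ENSMUSG00000064179, chromosome 7, 4504570 to 4516382 on mm10), the slow skeletal troponin T gene, lies 1922 bases from Tnni3 and was lower too. Its low level was 2.33, 3.85, 2.54, 1.94 and 2.49 FPKM in GSK libraries, 2.75, 1.28, 1.84, 1.78 and 4.15 in MI and 4.62, 3.48, 4.58, 4.19 and 4.84 in Sham. MI 5 reached into the Sham range and the other MI libraries did not (log2 difference -0.72 ± 0.18 SE, adjusted p = 0.0054). Tnnt2, the cardiac troponin T gene, had 602, 721, 508, 539 and 559 FPKM in GSK libraries, 632, 624, 574, 588 and 797 in MI and 769, 763, 707, 840 and 864 in Sham. Tnnt2 was not called between MI and Sham (-0.30 ± 0.13 SE, adjusted p = 0.0648), and the ranges overlapped through MI 5. Without MI 5 it was called (-0.38, adjusted p = 0.0178), as without GSK 2 (-0.30, adjusted p = 0.0474). The ratio of Tnnt1 to Tnnt2 was 0.445% ± 0.0726 in GSK, 0.357% ± 0.123 in MI and 0.553% ± 0.0766 in Sham libraries (SD, n = 5). Tnnc1, which encodes the calcium-binding subunit troponin C, averaged 1498 ± 253 FPKM in GSK, 1889 ± 534 in MI and 1383 ± 213 in Sham and was not called (0.42 ± 0.18 SE, adjusted p = 0.0731). Without MI 2 it was called as higher (0.50, adjusted p = 0.0466). Tnnc1 was also called as higher with mitochondrial genes left out and totals equalised (0.52, adjusted p = 0.008). With quantile normalization the difference was 0.95 (adjusted p = 5.88e-05). Tnni3 overlaps Dnaaf3 and Tnnc1 overlaps Nisch, genes above 1 FPKM, so part of their fragments may be shared.

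Tropomyosin, which lies along actin and blocks or frees its myosin sites, was not called, though quantile normalization made Tpm1 higher in MI (0.43, adjusted p = 0.00131). Tpm1, the main cardiac form, read 967, 1321, 1057, 1076 and 1100 FPKM in GSK libraries, 1102, 1023, 1059, 1258 and 1337 in MI and 1169, 1241, 1088, 1313 and 1252 in Sham. The minor form Tpm2 had 19.3, 11.2, 15.4, 9.38 and 13.6 FPKM in GSK libraries, 16, 16.5, 20.3, 12.3 and 18.8 in MI and 19.7, 15.4, 14.4, 12.7 and 12 in Sham. Tpm2 ran at 1.28% ± 0.473 of Tpm1 in GSK, 1.47% ± 0.342 in MI and 1.24% ± 0.301 in Sham, and neither gene separated the groups.

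Of the genes whose proteins shape the length of the thin filament, Nebl, Lmod3 and Tmod1 were lower and Lmod2 was not called. Nebl (ENSMUSG00000053702, chromosome 2, 17343909 to 17731464 on mm10) encodes nebulette, which binds actin next to the cardiac Z-disc. Nebl had 18.1, 20.5, 25.6, 28.7 and 16.1 FPKM in GSK libraries, 16.3, 12.7, 11.8, 19.6 and 18 in MI and 23.4, 22.6, 28.7, 27.8 and 32.2 in Sham. The 5 MI libraries lay below the 5 Sham libraries, and the GSK libraries spanned both ranges (MI against Sham -0.76 ± 0.17 SE, adjusted p = 0.00222). Lmod3 (ENSMUSG00000044086, chromosome 6, 97238534 to 97252759 on mm10) encodes a leiomodin, which nucleates and extends thin filaments. Lmod3 read 31.9, 43.5, 37.3, 42.9 and 40.4 FPKM in GSK libraries, 33.4, 14.2, 27.1, 33.4 and 41.8 in MI and 40.7, 44.3, 36.5, 40.4 and 49.1 in Sham. MI 2 was lowest and MI 5 lay among the Sham libraries, and the difference (-0.55 ± 0.21 SE, adjusted p = 0.0426) was -0.32 without MI 2 (adjusted p = 0.0643). The Lmod3 call was also lost without GSK 3, GSK 5, MI 3, Sham 1, Sham 2, Sham 4 or Sham 5 (adjusted p from 0.0503 to 0.12 over its 14 losses). Tmod1, which caps the pointed end, averaged 59.8 ± 9.52 FPKM in GSK, 55.8 ± 8.73 in MI and 69.3 ± 5.93 in Sham (-0.32 ± 0.12 SE, adjusted p = 0.0481). The Tmod1 call was lost without any of 11 libraries, GSK 3 and 4, MI 1 to 4 and Sham 1 to 5 (adjusted p from 0.055 to 0.119 over its 16 losses). The cardiac leiomodin gene Lmod2 stayed at 248 ± 49.5 FPKM in GSK, 248 ± 71.7 in MI and 247 ± 30.2 in Sham (-0.03 ± 0.18 SE, adjusted p = 0.898).

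**Figure D3:**
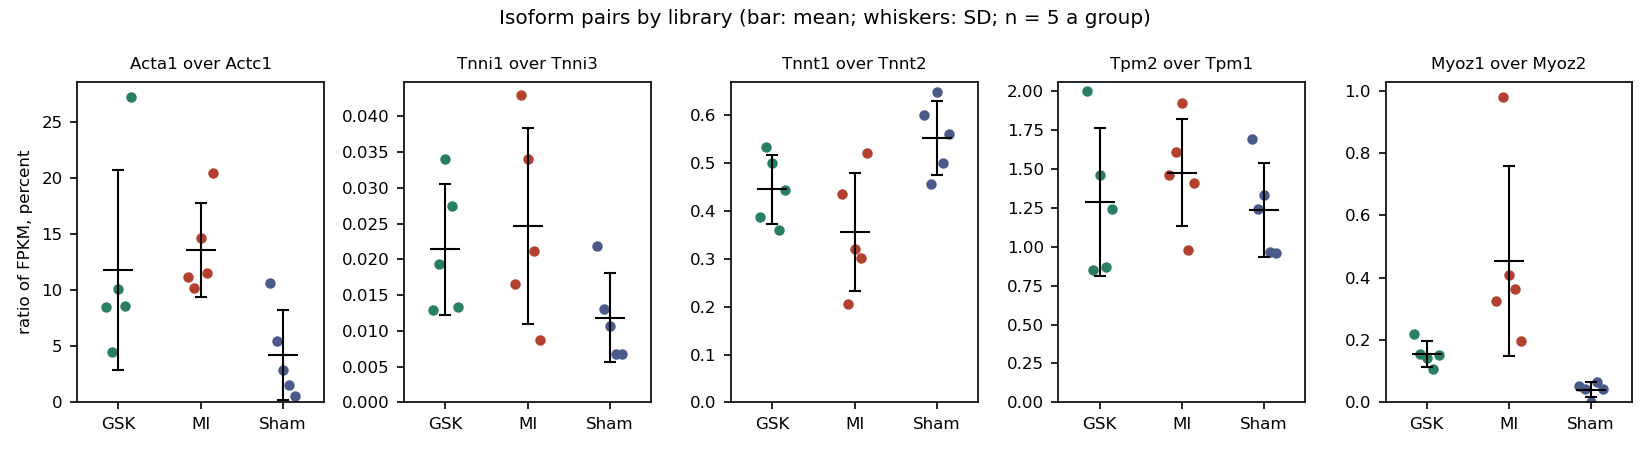
Points are libraries (n = 5 a group), horizontal bars means and whiskers SD of the ratio of FPKM, in percent, for 5 pairs in which the first gene is the minor or non-cardiac form. Acta1 over Actc1 is at least 10.2% in every MI library and at most 2.88% in the single-animal Sham hearts. The mixed Sham 1 and 2 had 10.7% and 5.44%, so the MI and Sham ranges overlap. Myoz1 over Myoz2 is higher in every GSK and MI library than in any Sham library. Myoz1 itself reached at most 1.21 FPKM and rests on few fragments.

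Titin and the M-band showed 1 fall and 1 rise. Ttn (ENSMUSG00000051747, chromosome 2, 76703980 to 76982547 on mm10), whose window upstream of the start is shown above with its MEF2 site, averaged 44.6 ± 9.11 FPKM in GSK, 33 ± 5.48 in MI and 47.7 ± 4.56 in Sham libraries. MI libraries ran from 27.2 to 39.1 FPKM and Sham libraries from 42.3 to 54.8 FPKM, with no overlap, and GSK libraries from 33.4 to 56.6 FPKM (-0.53 ± 0.14 SE, adjusted p = 0.0074 for MI against Sham). With the mixed Sham libraries left out the difference was -0.45 and the call was lost (adjusted p = 0.0548). Myom2 (ENSMUSG00000031461, chromosome 8, 15057653 to 15133541 on mm10) encodes myomesin 2, which crosslinks thick filaments at the M-band of fast and adult heart muscle. Myom2 had 141, 149, 93.7, 145 and 75.2 FPKM in GSK libraries, 94.8, 108, 108, 128 and 126 in MI and 70.9, 93.9, 78.2, 72.9 and 83.6 in Sham. Every MI library lay above every Sham library, by a margin of 94.8 against 93.9 FPKM at the closest (0.49 ± 0.18 SE, adjusted p = 0.0335). The call was lost without any of 7 single libraries (MI 3, 4 and 5 and Sham 1, 3, 4 and 5; adjusted p from 0.0508 to 0.0744 over all losses).

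The other tested members of this role were not called. Mybpc3, myosin-binding protein C of the heart, averaged 962 ± 125 FPKM in GSK, 961 ± 187 in MI and 790 ± 182 in Sham. Its difference of 0.29 (adjusted p = 0.186) was 0.52 without the mixed Sham libraries (adjusted p = 0.0341) and 0.39 with mitochondrial genes left out (adjusted p = 0.0398), and was called under both. Myom1, the main myomesin gene, averaged 133 ± 15 FPKM in GSK, 141 ± 23.1 in MI and 128 ± 15 in Sham, and Obsl1, a cytoskeletal linker, 15.4 ± 2.18 in GSK, 15.6 ± 4.45 in MI and 17 ± 1.04 in Sham. Myom3 stayed under the filter, at 0.828 ± 0.177 FPKM in GSK, 0.838 ± 0.121 in MI and 0.570 ± 0.169 in Sham.

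Mybphl, a myosin-binding protein of the atria and conduction system, had the widest spread of the tested members on the log2 scale. It read 34.5, 5.16, 8.55, 11.3 and 14 FPKM in GSK libraries, 37.6, 4.93, 0.257, 19.9 and 0.304 in MI and 12.6, 5.01, 44.7, 46 and 4.51 in Sham, and it was not called (-1.39 ± 0.93 SE, adjusted p = 0.24). Libraries high in Mybphl were high in the atrial myosin light chain Myl7, at 749 and 577 FPKM in Sham 3 and 4 and 402 FPKM in MI 1, and those lowest in Mybphl, MI 3 and 5, had 3.89 and 3.35 FPKM of Myl7. Bmp10, another atrial gene, was 94.9 FPKM in Sham 4 and at most 0.0401 FPKM in every other library. The summed atrial marker list ran from 350 to 2154 FPKM in GSK, from 305 to 2127 in MI and from 117 to 1809 in Sham, with 5 of its 6 genes tested and 1 of them, Nppa, called (higher). The median log2 difference of the tested genes was -1.88. Nppa made up 2022 of 2127 FPKM in MI 2, 1317 of 1344 in MI 3 and 1678 of 2154 in GSK 1. In Sham 3 it made up 356 of 1414 FPKM, so the sum did not follow Myl7 and Mybphl. The part of atrial tissue in the Mybphl values was not tested.

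The Z-disc held most of the rises. Synpo2l (ENSMUSG00000039376, chromosome 14, 20658946 to 20668354 on mm10) encodes CHAP, a cytoskeletal protein that binds alpha-actinin at the Z-disc. Synpo2l had 51.9, 53.6, 42.5, 44.7 and 124 FPKM in GSK libraries, 56.8, 194, 122, 153 and 87.8 in MI and 44.1, 45, 31.1, 29 and 27.8 in Sham. The 5 MI libraries stood above the 5 Sham libraries, and of the GSK libraries GSK 5 alone lay within the MI range (1.67 ± 0.32 SE, adjusted p = 0.000907 for MI against Sham). Myoz1 lies next to it, with 2405 bases between the genes, and encodes calsarcin 2, a calcineurin-binding protein of fast skeletal muscle. Its levels were 0.309, 0.266, 0.216, 0.172 and 0.250 FPKM in GSK libraries, 0.512, 1.21, 0.597, 0.657 and 0.348 in MI and 0.0953, 0.0850, 0, 0.0997 and 0.0736 in Sham. At these low levels Myoz1 did not reach the filter and was not tested, and the MI, GSK and Sham libraries formed 3 ranges, each without overlap with the others. These ranges rest on few fragments. The values of GSK 1 (0.309 FPKM) and MI 5 (0.348 FPKM) differ by about a single fragment per kilobase. That was worth 0.0365 FPKM in GSK 1 and 0.0388 FPKM in MI 5.

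Myoz2, the calsarcin of heart and slow muscle, read 141, 171, 153, 162 and 164 FPKM in GSK libraries, 158, 123, 147, 181 and 177 in MI and 184, 191, 150, 151 and 166 in Sham and was not called (-0.10 ± 0.12 SE, adjusted p = 0.503). The ratio of Myoz1 to Myoz2 was 0.155% ± 0.0409 in GSK, 0.454% ± 0.304 in MI and 0.0414% ± 0.0248 in Sham libraries (SD, n = 5). The fast calsarcin stayed below 1% of the cardiac one in every library.

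Flnc (ENSMUSG00000068699, chromosome 6, 29433256 to 29461883 on mm10) encodes filamin C, an actin crosslinker at Z-discs and intercalated discs. Flnc had 45.2, 52.2, 41.2, 41.1 and 73.8 FPKM in GSK libraries, 53.2, 137, 72.3, 71.9 and 88.7 in MI and 54.3, 47.6, 33, 33.2 and 40.6 in Sham. MI 1 lay just below Sham 1 and all other MI libraries above every Sham library (0.96 ± 0.23 SE, adjusted p = 0.00368). Des (ENSMUSG00000026208, chromosome 1, 75360329 to 75368579 on mm10) encodes desmin, the muscle intermediate filament. Des read 401, 436, 384, 393 and 628 FPKM in GSK libraries, 500, 1172, 709, 751 and 830 in MI and 479, 467, 334, 336 and 461 in Sham. The lowest MI library, at 500 FPKM, exceeded the highest Sham library, at 479 FPKM, and 4 of the 5 GSK libraries lay within the Sham range (0.90 ± 0.21 SE, adjusted p = 0.00307 for MI against Sham).

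Pdlim5 (ENSMUSG00000028273, chromosome 3, 142239590 to 142395696 on mm10) encodes ENH, a PDZ and LIM protein that ties kinases to the Z-disc. Pdlim5 had 73.3, 76.7, 89, 90.7 and 112 FPKM in GSK libraries, 83.5, 134, 93.6, 170 and 125 in MI and 85.4, 68.4, 60.6, 65.2 and 64.3 in Sham. Sham 1, at 85.4 FPKM, overlapped MI 1 (0.77 ± 0.18 SE, adjusted p = 0.00273). Smpx (ENSMUSG00000041476, chromosome X, 157698910 to 157752591 on mm10) encodes a small muscle protein linked to stretch. Smpx read 111, 110, 95.5, 106 and 129 FPKM in GSK libraries, 111, 191, 134, 194 and 184 in MI and 85.7, 90.3, 97.9, 112 and 100 in Sham. MI 2, 4 and 5 stood clear of all other libraries, and MI 1 lay within the Sham range (0.71 ± 0.15 SE, adjusted p = 0.00168).

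Actn2 (ENSMUSG00000052374, chromosome 13, 12269426 to 12340760 on mm10) encodes alpha-actinin 2, the crosslinker that anchors actin in the Z-disc. Actn2 had 351, 475, 441, 468 and 445 FPKM in GSK libraries, 439, 464, 446, 571 and 713 in MI and 463, 444, 304, 305 and 400 in Sham. The MI and Sham ranges overlapped through the mixed Sham 1 and 2, and the call (0.45 ± 0.17 SE, adjusted p = 0.0378) was lost without MI 4, MI 5, Sham 3, Sham 4 or Sham 5 (adjusted p from 0.0542 to 0.0991 over all losses). Without the mixed Sham libraries the difference was 0.63 (adjusted p = 0.0188) and 0.75 with quantile normalization (adjusted p = 0.000934).

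Cmya5 (ENSMUSG00000047419, chromosome 13, 93040713 to 93144724 on mm10) was the exception at the Z-disc and the clearest call of all members. It encodes myospryn, a large protein that binds desmin and alpha-actinin. Cmya5 had 29, 41.7, 46.2, 42 and 30.7 FPKM in GSK libraries, 32.9, 16.4, 20.2, 21.5 and 24.8 in MI and 64.5, 64.1, 54.4, 54.1 and 64.2 in Sham. All MI libraries lay below all Sham libraries, and all GSK libraries also lay below all Sham libraries, with MI 1 above the lowest GSK libraries (-1.37 ± 0.17 SE, adjusted p = 3.96e-05 for MI against Sham). Desmin and its binding partner moved in opposite directions.

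Beside Myoz2, 5 tested Z-disc genes were not called between MI and Sham. Tcap, the titin cap, averaged 552 ± 139 FPKM in GSK, 540 ± 130 in MI and 664 ± 78.5 in Sham. Ldb3, the PDZ and LIM protein Cypher, averaged 161 ± 17.6 FPKM in GSK, 153 ± 21.7 in MI and 173 ± 21 in Sham, and Pdlim3, its relative ALP, 6.54 ± 2.86 in GSK, 8.05 ± 1.81 in MI and 6.26 ± 0.873 in Sham. Nrap, a scaffold of myofibril assembly, averaged 103 ± 21.2 FPKM in GSK, 125 ± 17.5 in MI and 94.4 ± 32.8 in Sham. Its difference of 0.46 ± 0.20 SE (adjusted p = 0.0767) was 0.81 without the mixed Sham libraries (adjusted p = 0.00249), 0.60 without Sham 1 alone (adjusted p = 0.0236) and 0.58 without Sham 2 alone (adjusted p = 0.0316). Myot, which encodes myotilin, read 15.3, 25.6, 44.6, 39.6 and 28 FPKM in GSK, 23.6, 14, 13.2, 37.7 and 16.1 in MI and 42.6, 33.1, 11.8, 6.94 and 7.79 in Sham. Its Sham values were 42.6 and 33.1 FPKM in the mixed libraries and 6.94 to 11.8 FPKM in the single hearts, and without the mixed libraries the MI difference was 1.08 (adjusted p = 0.0333).

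**Figure D4:**
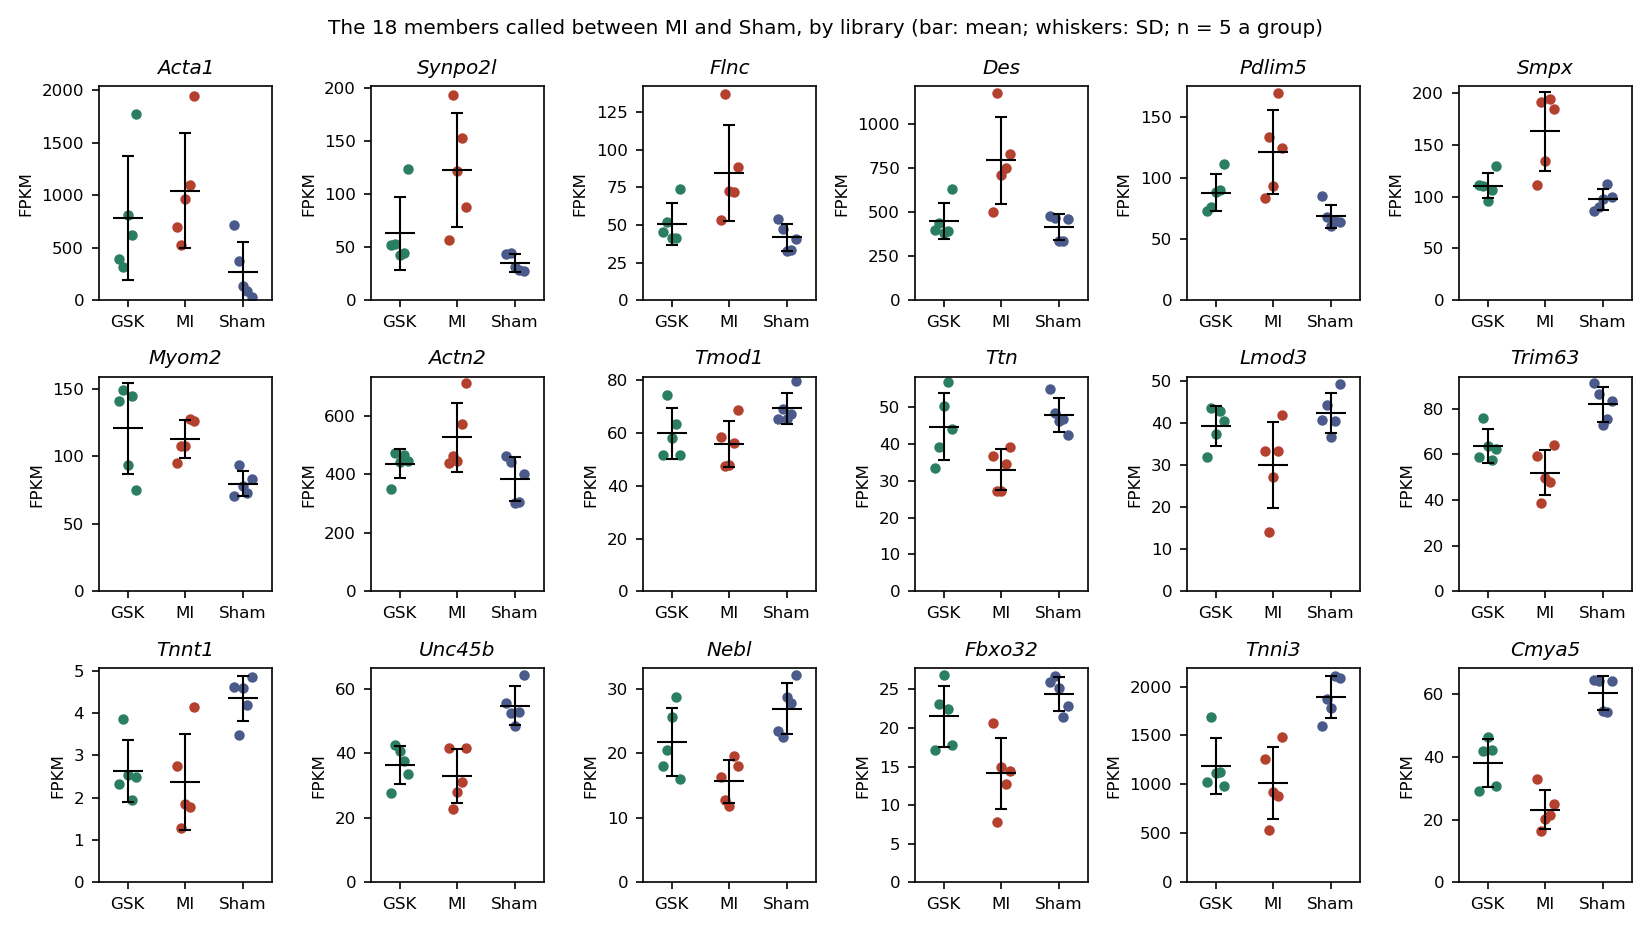
Points are libraries (n = 5 a group) in FPKM on axes from 0, horizontal bars means and whiskers SD, for the 18 members called between MI and Sham; the lower whisker of Acta1 in Sham ends at the axis. From Acta1 to Actn2 MI is above Sham, from Tmod1 to Cmya5 it is below, and 4 of the 5 GSK libraries of Des and of Smpx sit in the Sham range.

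Of the assembly and turnover genes, Fbxo32, Trim63 and Unc45b were lower in MI. Fbxo32 (ENSMUSG00000022358, chromosome 15, 58175879 to 58214932 on mm10) encodes atrogin 1, a muscle ubiquitin ligase of atrophy. Fbxo32 had 17.2, 23.1, 26.8, 22.5 and 17.8 FPKM in GSK libraries, 20.6, 7.83, 15, 12.7 and 14.4 in MI and 25.9, 26.7, 25.2, 21.4 and 22.8 in Sham. The MI libraries all lay below the Sham libraries, and GSK 2, 3 and 4 lay within or above the Sham range (-0.80 ± 0.19 SE, adjusted p = 0.00299 for MI against Sham). Trim63 (ENSMUSG00000028834, chromosome 4, 134315120 to 134329629 on mm10) encodes MuRF1, a ligase that marks sarcomere proteins for breakdown. Trim63 read 58.8, 75.8, 63.7, 57.4 and 62.5 FPKM in GSK libraries, 59.4, 38.7, 49.7, 48 and 64 in MI and 91.2, 86.5, 73, 75.3 and 83.4 in Sham. MI and Sham did not overlap, and GSK 2 was the sole GSK library within the Sham range (-0.66 ± 0.13 SE, adjusted p = 0.000886).

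Unc45b (ENSMUSG00000018845, chromosome 11, 82910550 to 82943403 on mm10) encodes a chaperone that folds the myosin head. Unc45b had 27.6, 42.7, 40.7, 37.6 and 33.5 FPKM in GSK libraries, 41.7, 22.7, 27.9, 31 and 41.8 in MI and 55.7, 52.6, 48.4, 52.8 and 64.4 in Sham. All MI and all GSK libraries lay below all Sham libraries (-0.74 ± 0.16 SE, adjusted p = 0.00199 for MI against Sham). It overlaps the antisense gene Unc45bos, and the strand setting is not known. The related ligases Trim55 (MuRF2) and Trim54 (MuRF3) were not called, at 40.8 ± 4.84 and 81.3 ± 17 FPKM in GSK, 39.3 ± 7.40 and 77.6 ± 12.4 in MI and 42.1 ± 1.48 and 93.8 ± 18.8 in Sham. Smyd1, a methyltransferase needed for myofibril assembly, averaged 127 ± 21.6 FPKM in GSK, 120 ± 38.6 in MI and 121 ± 5.60 in Sham (-0.07 ± 0.19 SE, adjusted p = 0.793). Fbxo32 and Trim63, the ligase genes best known from muscle atrophy, both fell. Genes above 1 FPKM also overlap Smyd1 (Krcc1), Trim55 (BC002189), Tmod1 (Tstd2), Myom1 (Myl12a) and Myoz2 (Gm22066).

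Across the 37 tested members, 3 had all MI libraries above all Sham libraries (8.11%, beside 15.7% of all genes) and 7 had all below (18.9%, beside 14.2%). The untested Myoz1 was also wholly above. The first were Des, Myom2 and Synpo2l, and the second Cmya5, Fbxo32, Nebl, Tnni3, Trim63, Ttn and Unc45b. Hearts of one group did not deviate evenly. Of the 37 tested members, MI 2 was the lowest of all 15 libraries in 14 and the highest in 4, while MI 5 was the highest in 9 and the lowest in 0. MI 1 was neither in any member. MI 2 also had the lowest summed cardiomyocyte markers outside the sarcomere, at 6876 FPKM, and MI 5 had 15153 FPKM.

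Marker lists of the cells in the ventricle differed in how they moved in MI. Over all genes tested 21.9% were higher and 21.9% lower. The 17 cardiomyocyte markers outside the sarcomere summed to 11820 to 17638 FPKM in GSK, 6876 to 15153 in MI and 16858 to 19770 in Sham libraries, and 12 of 17 were lower in MI (median -0.72). Among them Hrc (-1.73 ± 0.31 SE), the phospholamban gene Pln (-1.33 ± 0.28) and the calcium pump gene Atp2a2 (-1.44 ± 0.25) fell, as did Cox7a1 (-1.37 ± 0.38). Fibroblast and matrix markers summed to 497 to 1991 FPKM in GSK, 803 to 2078 in MI and 275 to 388 in Sham, with 9 of 12 higher in MI (median 2.46). Macrophage markers summed to 440 to 1012 FPKM in GSK, 655 to 1102 in MI and 305 to 387 in Sham, with 11 of 12 higher (median 1.29). Smooth muscle and myofibroblast markers summed to 300 to 354 FPKM in GSK, 300 to 432 in MI and 323 to 396 in Sham, with 2 of 11 tested higher and 3 lower. Endothelial markers had 2 of 10 higher and 1 lower, blood markers 1 of 5 higher and skeletal muscle markers 1 of 6 tested lower, the last being Ckm, which the heart also expresses. Some genes are in several lists. Ckm counts as a cardiomyocyte and a skeletal muscle marker, and Ckm and Asb2 recur in the lists of sarcomere genes below. Their falls are therefore counted repeatedly. The part of cell composition in the members' differences was not tested.

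Other genes of the same structures were read beside the members. Of 23 tested other genes of the Z-disc and intercalated disc 15 were higher and 2 lower in MI (median 0.57). Ankrd1, a stretch-responsive ankyrin repeat protein, averaged 1687 ± 735 FPKM in GSK, 2386 ± 613 in MI and 406 ± 249 in Sham (2.75 ± 0.39 SE, adjusted p = 0.000104). Its relative Ankrd2 (1.57 ± 0.35), the non-muscle alpha-actinin gene Actn1 (1.45 ± 0.24) and Xirp2 (1.37 ± 0.37) rose as well. Of 15 other thin filament and actin genes 8 were higher and 3 lower (median 0.37), led by genes that non-muscle cells also express, the cytoplasmic actins Actb (1.21 ± 0.13) and Actg1 (1.08 ± 0.14) and the tropomyosin gene Tpm4 (1.13 ± 0.13), with Tmod4 lower (-0.99 ± 0.20). Of 9 other thick filament, titin and M-band genes 1 was higher, Fhl1 (1.79 ± 0.32), and 5 lower (median -0.24), among them the creatine kinase gene Ckm (-0.84 ± 0.28) and the myosin light chain kinase gene Mylk3 (-0.78 ± 0.23). Of 20 assembly, chaperone and turnover genes 3 were higher and 2 lower (median 0.12); the chaperone gene Hspb7 (0.93 ± 0.20), the methyltransferase gene Smyd2 (0.45 ± 0.12) and the calpain gene Capn2 (0.44 ± 0.09) rose, and Asb2 (-0.58 ± 0.21) fell.

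The inhibitor was compared with vehicle in infarcted hearts as GSK against MI. No member was called by limma, and none of the 12585 genes was, 0.0% higher and 0.0% lower, although 11 members and 2638 genes had an unadjusted p under 0.05. With voom on recovered fragments 2 genes were called and no member was. The lowest adjusted p of any gene was 0.0536. The median log2 difference of the members was 0.02, beside 0.00 over all genes. By role the medians were -0.29 at the Z-disc, -0.02 in the thin filament, 0.03 in titin, thick filament and M-band and 0.14 in assembly and turnover. None of the 37 tested members had its 5 GSK libraries wholly above or below the 5 MI libraries, which 1.15% (above) and 0.858% (below) of all genes tested did. The untested Myoz1 lay wholly below, at 0.172 to 0.309 FPKM in GSK and 0.348 to 1.21 FPKM in MI, a separation that rests on few fragments.

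The 4 members of lowest p, none of them called, were Cmya5, Des, Smpx and Fbxo32. Cmya5 averaged 37.9 ± 7.60 FPKM in GSK libraries and 23.2 ± 6.22 in MI (0.70 ± 0.17 SE, adjusted p = 0.0888). Fbxo32 averaged 21.5 ± 3.99 FPKM in GSK and 14.1 ± 4.60 in MI (0.61 ± 0.19 SE, adjusted p = 0.117). Des averaged 449 ± 102 FPKM in GSK and 792 ± 245 in MI (-0.79 ± 0.21 SE, adjusted p = 0.102). Smpx averaged 110 ± 11.9 FPKM in GSK and 163 ± 37.8 in MI (-0.53 ± 0.15 SE, adjusted p = 0.113). In each of the 4 the GSK and MI ranges overlapped, through GSK 5 or MI 1 or both. Acta1 had a GSK minus MI difference of -0.55 ± 0.70 SE (adjusted p = 0.667), and Tnni3 of 0.28 ± 0.23 SE (adjusted p = 0.501).

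Whether these members pass the threshold turns on single hearts. Without MI 1, 392 genes were called, among them Cmya5 (0.83, adjusted p = 0.0186) and Fbxo32 (0.76, adjusted p = 0.0344) as higher, and Des (-0.94, adjusted p = 0.0282), Smpx (-0.66, adjusted p = 0.0263) and Synpo2l (-1.19, adjusted p = 0.0477) as lower. Without GSK 5, 288 genes were called, among them Cmya5 (0.77, adjusted p = 0.0442), Des (-0.92, adjusted p = 0.0441) and Synpo2l (-1.21, adjusted p = 0.0465). Without GSK 1 there were 7 called genes and without MI 4 there were 26, none of them a member. GSK 5 had the highest Acta1, Des, Synpo2l, Flnc, Smpx and Pdlim5 of the GSK libraries, and MI 1 the lowest Des, Synpo2l, Flnc, Smpx and Pdlim5 of the MI libraries.

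**Figure D5:**
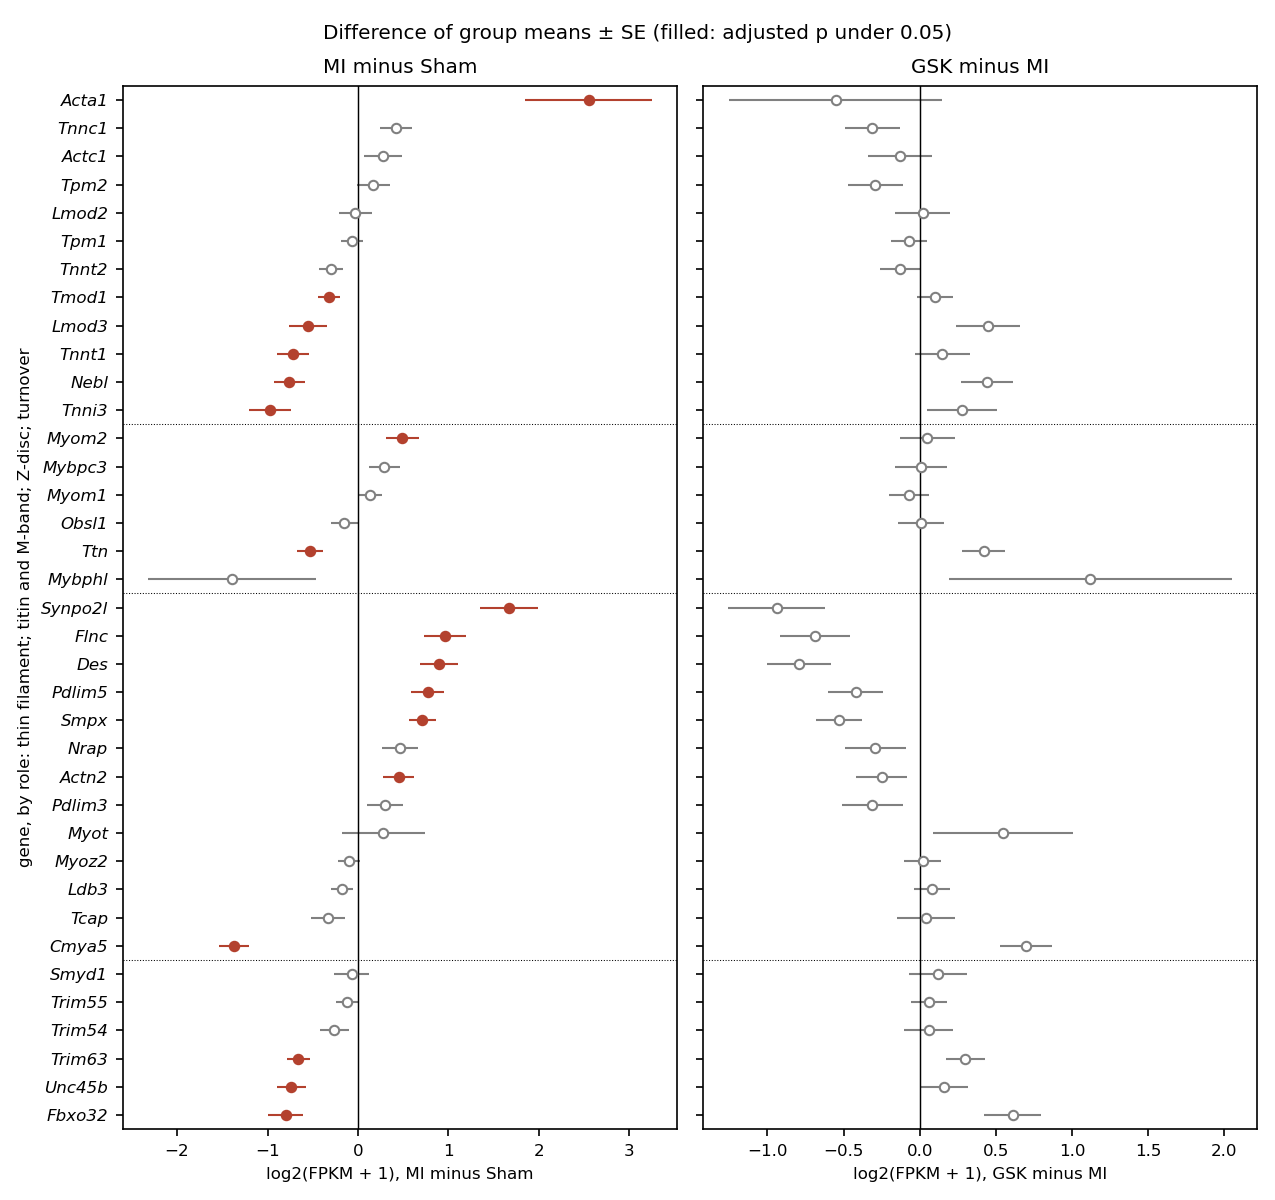
Points are differences of group means of log2(FPKM + 1) with SE for the 37 tested members, MI minus Sham at left and GSK minus MI at right, grouped by role; filled points have an adjusted p under 0.05. The left panel has 18 filled points and the right panel none, and the panels share the MI libraries, so opposite signs in them are not independent.

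GSK against Sham is the remaining contrast and shares libraries with both others. In it 1 member was higher (2.70%, beside 10.8% of all genes) and 4 were lower (10.8%, beside 7.58%). Myom2 was higher, at 121 ± 33.9 FPKM in GSK and 79.9 ± 9.26 in Sham (0.55 ± 0.18 SE, adjusted p = 0.0434). Cmya5 was lower (-0.67 ± 0.17 SE, adjusted p = 0.0138), as were Unc45b (-0.59 ± 0.16 SE, adjusted p = 0.0233), Tnnt1 (-0.57 ± 0.18 SE, adjusted p = 0.0427) and Tnnt2 (-0.44 ± 0.13 SE, adjusted p = 0.0285). Cmya5 and Unc45b had all GSK libraries below all Sham libraries. None of the 5 kept its call in every alternative tried. The Tnnt2 call was lost without GSK 1, 3, 4 or 5 or Sham 4 or 5 (adjusted p from 0.051 to 0.426 over its 11 losses), and that of Tnnt1 without the same GSK libraries or Sham 1, 3, 4 or 5 (0.0518 to 0.144 over 13). Unc45b lost it without GSK 1, GSK 5 or Sham 5 (0.0529 to 0.0764 over 7), and Myom2 without GSK 1, 2 or 4, MI 3 or Sham 1, 3, 4 or 5 (0.0514 to 0.228 over 14). Cmya5 kept it without any single library and lost it in 2 other alternatives (0.0534 and 0.0727). Myom2 went to 0.34 (adjusted p = 0.228) with GSK 1 and 2 left out. Acta1 was not called between GSK and Sham (1.99 ± 0.70 SE, adjusted p = 0.0591), but was called in 6 of the 26 alternatives. Without the mixed Sham libraries its difference was 3.12 (adjusted p = 0.00777), and it was called without Sham 1 (2.53, adjusted p = 0.0206), Sham 2 (2.30, adjusted p = 0.0494) or GSK 2 alone (2.25, adjusted p = 0.0459). Tnni3 was not called either (-0.69 ± 0.23 SE, adjusted p = 0.0527), and was called without GSK 2 (-0.83, adjusted p = 0.0254), MI 2 (-0.69, adjusted p = 0.0152) or MI 5 (-0.69, adjusted p = 0.0331). Trim63, not called, was called as lower without the same libraries. It was at -0.42 without GSK 2 (adjusted p = 0.035) and -0.36 without MI 2 or MI 5 (adjusted p = 0.0275 and 0.0428). With only the 2 groups compared both were called as lower, Tnni3 at -0.69 (adjusted p = 0.0105) and Trim63 at -0.36 (adjusted p = 0.0204). A filter of 5 FPKM also gave a Tnni3 call (-0.69, adjusted p = 0.0492).

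The mixed and the single-animal Sham libraries differed in many members. In 20 of the 37 tested members both mixed Sham libraries exceeded all 3 single-animal libraries, against 13.5% of all genes, and in 2 members, Smpx and Nebl, both were lower, against 14.3% of all genes. Acta1 averaged 549 FPKM in the mixed and 87.3 FPKM in the single libraries, Myot 37.8 and 8.84 FPKM, and Nrap 130 and 70.6 FPKM. Mixing and animal cannot be told apart here.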

How the data were processed

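The authors deposited FPKM values per gene, with gene length and coordinates, for 15 poly-A libraries of paired 150 nt reads. The submitters' processing notes name HISAT2, featureCounts, Subread, DESeq2, R 3.5.1 and mm10. Annotation release, strand setting and filters: not given in the sources used here. Value times gene length was a whole multiple of a library's step for 100% of values (tolerance 0.01). The scaling total was 23.6 M fragments times a median-of-ratios factor, so the deposited values are relative to a library's median gene.

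From the deposited values log2(FPKM + 1) was computed, which understates changes of low genes. A gene was kept if 5 or more libraries reached 1 FPKM, which left 12585 genes. Group means were fitted to all 15 libraries by limma 3.58.1 (R 4.3.3; eBayes with trend), with 1 spread estimate for all groups; the fit was tested on simulated data. The members Myoz1, Tnni1 and Myom3 fell below the filter and have no test. Libraries were treated as biological replicates because the protocols speak of independent mice, though the sample names leave a doubt about the animal numbers, given above. The p-values set a difference of group means against the spread between libraries within groups. The mixed Sham libraries among them are not single animals.

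Every library's value is given for members called in MI against Sham (up to 8 rises and 8 falls of largest size) and for 5 isoform pairs; the 4 members of lowest p in GSK against MI are named. Mybphl and Myot are given in full after their values were seen. Members and lists were chosen with earlier results of these data known. Replicate numbers were not taken to pair animals: deviations of same-numbered libraries correlated at -0.411 to 0.486. Windows are RefSeq's on GRCm38.p6. Alternatives, 26 per comparison, are in the closing section.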

Additional observations from a re-analysis of the deposited data

Results flagged for a closer look

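In groups of 5 libraries, 8 of the 120 sets of member values had a library whose gap to its nearest neighbour took over 0.71 of the group's range; chance gives about 1 in 20 such sets. In the GSK group Tnni3 was high in GSK 2 (1690 FPKM, against 984 to 1127 in the other 4), Des in GSK 5 (628 FPKM, against 384 to 436) and Synpo2l in GSK 5 (124 FPKM, against 42.5 to 53.6), and Actn2 was low in GSK 1 (351 FPKM, against 441 to 475). In MI, Tnnt2 was high in MI 5 (797 FPKM, against 574 to 632). In Sham, Tmod1 was high in Sham 5 (79.5 FPKM, against 65.3 to 69.1), Trim55 in Sham 4 (44.7 FPKM, against 40.8 to 41.9), and Myoz1 was listed at 0 in Sham 3 (0 FPKM, against 0.0736 to 0.0997).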

How the results depend on the processing

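Of the members called in MI against Sham, 6 of 8 higher and 6 of 10 lower kept their call under every one of the 26 alternatives that tested them, 15 of which leave out 1 library; Tnnt1 was not tested with a filter of 5 FPKM. The others are named with their values beside the result. Quantile normalization gave 13 members higher and turned the direction of Tpm1 (log2 difference 0.43, adjusted p = 0.00131, against -0.07 as reported, where it was not called). It added Actc1, Mybpc3, Nrap, Tnnc1 and Tpm1 to the calls, and testing without a filter added Myoz1. Over all genes in MI against Sham, 3270 were called with a filter of 5 FPKM, against 5515.

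In GSK against MI, 3 genes were called with a pseudocount of 0.1 and 2 with voom on recovered fragments. In GSK against Sham the members higher were 0 with no filter, with the 2 groups alone, without MI 4, GSK 3 and GSK 4, and without GSK 1 and 2; they were 5 with quantile normalization, 3 without mitochondrial genes and 2 without the mixed Sham libraries. Members lower there were 1 with no filter, 0 without the mixed Sham libraries and 2 without GSK 1 and 2. All genes called there, 2308 as reported, were 1384 with a filter of 5 FPKM, 3477 with the 2 groups alone, 1242 without the mixed Sham libraries and 1392 without GSK 1 and 2.

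With the replicate block, GSK against Sham had 0 members higher, 1 lower and 1459 genes called; MI against Sham had 6 members higher and 8 lower, and the numbers are not known to pair animals.

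Leaving out 1 library each gave 6 to 9 members higher, 8 to 11 lower and 4692 to 5674 genes in MI against Sham. The ranges were 0 to 2, 0 to 3 and 0 to 392 in GSK against MI, and 0 to 2, 1 to 6 and 1185 to 2888 in GSK against Sham. The cause of these shifts was not tested. What the filter of 1 FPKM leaves out of the test is Myoz1, Tnni1 and Myom3.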

Other observations

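Tnni1 and Tnnt2, 25364 bases apart on chromosome 1, were not called in MI against Sham or not tested, while the neighbours Tnnt1 and Tnni3 on chromosome 7 were both lower. The mean FPKM of MI over that of Sham was 3.47 for Synpo2l and 9.41 for its neighbour Myoz1, the second at levels of at most 1.21 FPKM and with 1 Sham library listed at 0.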
